A study of Arabidopsis thaliana with 28 samples.

Results

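Seedlings of Arabidopsis thaliana that had been exposed for 9 h to abscisic acid (ABA) were set against seedlings kept for 9 h in an ethanol mock. The contrast was chosen from the sample labels and takes 4 of the 28 RNA sequencing libraries of a time course, 2 labelled ABA_9h and 2 labelled EtOH_9h. Both groups are seedlings of the wild type Col-0 that were sampled as total RNA, and they differ by the agent, ABA against ethanol. The same pair of treatments was sampled at 0.5, 1, 3, 6, 9, 12 and 24 h. The sources used here give neither the ABA dose nor the seedlings' age and growth conditions. The deposited table holds 1 value per gene and group, and how the libraries of a group were pooled is not stated. The values were taken as FPKM (fragments per kilobase of transcript, scaled to the fragments mapped), since the headers name no unit. The contrast therefore rests on 2 of 14 pooled values per gene, replicate error is missing throughout, and the spread between libraries could not be measured. Differences below are log2(FPKM + 1) of the ABA pool minus that of the mock pool, called the log2 effect, and understate the change of genes near 0 FPKM.

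ABA is the plant hormone of drought and seed dormancy. It is bound by the PYR/PYL receptors, which then hold back the clade A PP2C phosphatases and so release the SnRK2 kinases and the ABF transcription factors that act on promoters with an ABA-responsive element. ABA closes stomata, slows growth and brings on genes for protective proteins. It also acts on defence that depends on salicylate, the hormone of immunity to many pathogens.

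Of 20034 genes that reached 1 FPKM in 2 or more of the 14 pools, 3539 (17.7%) were called higher and 3677 (18.4%) lower under ABA at 9 h in the authors' deposited table, and the median log2 effect of all 20034 was -0.01. A call in the authors' deposited table together with a log2 effect of at least 1 in size was found for 1355 genes higher (6.76%) and 976 lower (4.87%). The shares of 17.7% and 18.4% are the background for the counts of called list members below. The pool summed to 943832 FPKM under ABA and 951769 in mock, with 18822 genes at 1 FPKM or more under ABA and 18790 in mock. The 10 most abundant genes took 7.45% of the sum under ABA and 6.28% in mock. Sequencing depth is unknown. Genes are no independent replicates. Across them the log2 levels of the ABA pool and the mock pool correlated with a Pearson's r of 0.907 (n = 20034 genes). The 32 genes of the photosynthetic light reactions were at 93.4 FPKM or more in both pools, and all 12 root markers passed the filter as well. In such bulk seedlings, fewer cells of a type and less RNA per cell cannot be told apart.

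LEA and cold-protective genes were among the 10 largest rises of called genes with a mean of at least 5 FPKM. RD29B, which encodes a drought and cold stress protein, had 439.9 FPKM under ABA and 0.455 in mock (log2 effect 8.24). AT2G37870, annotated as a lipid-transfer family protein, had 871 FPKM under ABA and 2.25 in mock (8.07). The late embryogenesis abundant (LEA) genes AT3G02480, LEA4-5, LEA7 and AT3G17520 had log2 effects of 7.88, 7.79, 7.67 and 7.17. COR15A, which encodes a chloroplast protein of cold hardening, had 5415 FPKM under ABA and 28.8 in mock (7.51), and is uncertain because it shares reads with its neighbouring copy. The membrane protein gene TSPO (7.32), the dehydrin gene RAB18 (7.31) and the lipid transfer protein gene LTP3 (6.99) complete the 10. In the authors' deposited table these 10 genes were called higher at all 7 times. The share of all genes tested called higher at all 7 times was not counted. It can be no larger than the 17.7% called higher at 9 h. The 10 were chosen for their 9 h effects, so their calls at other times are not shown to be particular to them.

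Defence-related genes were among the 10 largest falls. EARLI1 had 7.18 FPKM under ABA and 1244 in mock (log2 effect -7.25), AT4G12490 had 1.83 FPKM under ABA and 354 in mock (-6.97) and AZI1 had 20.6 FPKM under ABA and 1078 in mock (-5.64). These are lipid-transfer family genes of 1 tandem cluster whose similar copies can share reads, so the split between them is uncertain. AIG1, a gene first described as induced by a bacterial effector, had 0.292 FPKM under ABA and 67.9 in mock (-5.74). The peroxidase gene AT5G64120 had 8.79 FPKM under ABA and 404 in mock (-5.37), and HR4, a homolog of the resistance gene RPW8, had 4.68 FPKM under ABA and 207 in mock (-5.20). MAM3, which encodes a chain-elongating enzyme of aliphatic glucosinolates, had 3.09 FPKM under ABA and 112 in mock (-4.79). AT1G27020 (-5.12), the EF-hand gene AT3G47480 (-5.01) and the uncharacterized AT1G65486 (-5.003) were the others of the 10.

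The calls leave out some of the widest gaps. A total of 294 genes had a log2 effect of at least 1 in size but no call in the authors' deposited table, 172 higher and 122 lower under ABA. The widest was LTP4, a copy near LTP3, with 1528 FPKM under ABA and 0.110 in mock (log2 effect 10.43). The ABA receptor gene PYL6 had 0.0754 FPKM under ABA and 64.7 in mock (-5.93), the phosphatase gene HAI3 had 66.0 FPKM under ABA and 0.113 in mock (5.91) and HSP22.0, a small heat shock protein gene, had 53.99 FPKM under ABA and 0.0542 in mock (5.70). These 4 were chosen after their values were seen. In each of them 1 pool was below 0.2 FPKM, but this did not hold for all uncalled genes. XPL1, also chosen after its values were seen, had 183 FPKM under ABA and 10.7 in mock (3.98). Of the 294, 84 had a mean of at least 5 FPKM and 31 were listed at 0 in either pool. Counts of called genes are therefore not counts of all genes that differed, and values are given below for uncalled members that a list turns on.

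A difference at 9 h can come with a moved ABA level, a moved mock level or both. Each level was therefore set against early mock, the mean log2 level of the mock pools at 0.5 and 1 h, so that the log2 effect is exactly the ABA side (ABA at 9 h minus early mock) minus the mock side (mock at 9 h minus early mock). A gene called and at least 1 apart was termed ABA-led where the ABA side gave at least 0.75 of the effect, mock-led where it gave at most 0.25, and shared between. Among 1355 such genes higher in the authors' deposited table, 708 (52.3%) were ABA-led, 527 (38.9%) shared and 120 (8.86%) mock-led. Among 976 lower in the authors' deposited table, 454 (46.5%) were ABA-led, 263 (26.9%) shared and 259 (26.5%) mock-led. The lower genes thus held the larger mock-led share. Over all genes tested, the mock pool at 9 h stood at least 1 above early mock in 1014 genes (5.06%) and at least 1 below it in 1119 (5.59%). In mock, hours in ethanol and the hour of the day cannot be told apart.

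**Figure D1:**
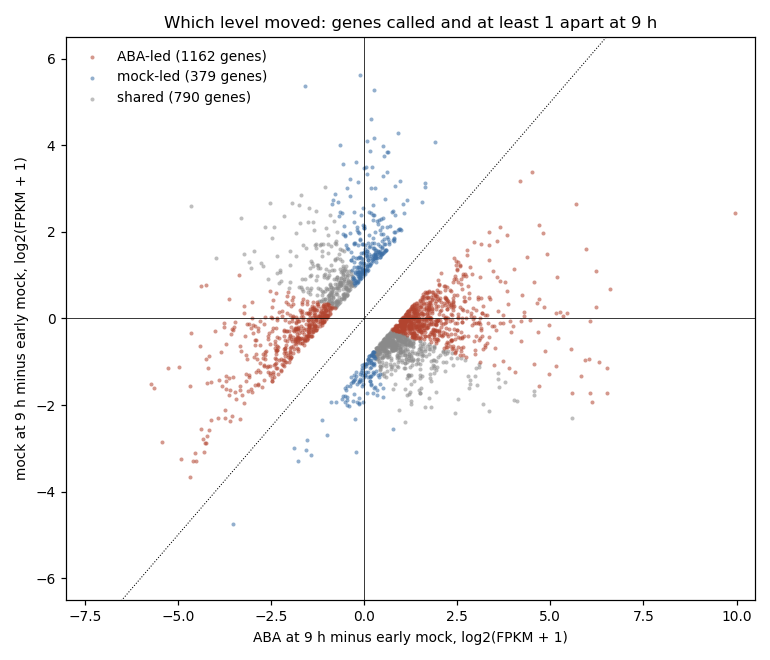
ABA pool at 9 h minus early mock (horizontal axis) against mock pool at 9 h minus early mock (vertical axis), both as differences of log2(FPKM + 1), for 2331 genes called and at least 1 apart; each point is a gene and the dotted diagonal marks equal levels. Points right of the diagonal are higher under ABA. The 1162 ABA-led genes lie closer to the horizontal line, the 379 mock-led genes closer to the vertical line and the 790 shared genes between. The 137 genes whose levels both moved by at least 1 in the same way lie away from both lines.

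The terms depend on the base. With the mock pools at 3 and 6 h as the base, 1217 genes were ABA-led higher, 705 ABA-led lower, 2 mock-led higher and 32 mock-led lower, and with the other 6 mock pools the mock-led genes numbered 7 higher and 30 lower. The median mock log2 level of the mock-led lower genes was 2.597 at 0.5 h, 3.75 at 3 h, 4.17 at 6 h and 4.55 at 9 h, so that most of their distance from early mock was already there at 6 h. Scaling each pool to the same sum moved the median side of all genes tested to 0.27 for ABA and 0.20 for mock, against 0.04 for ABA and -0.02 for mock as deposited, and left 71 mock-led higher genes, since the early mock pools have larger sums; the log2 effects themselves hardly moved. The borders are also densely filled, with 109 genes just outside the ABA-led border (ABA share 0.70 to 0.75) and 118 just inside it (0.75 to 0.80), and with 44 genes just inside the mock-led border (0.20 to 0.25) and 48 just outside it (0.25 to 0.30). Both levels had moved by at least 1 in opposite ways in 144 genes, and in the same way in 137.

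The ABA-led and mock-led genes were largely called the same way at neighbouring times, each of which has pools of its own. In the authors' deposited table, 93.1% of the ABA-led higher genes were also called higher at 6 h, 92.2% at 12 h and 86.7% at 24 h, where 22.2, 18.7 and 19.2% of all genes tested were. For the mock-led lower genes the shares lower by the calls in the authors' deposited table were 85.7% at 6 h, 90.7% at 12 h and 81.5% at 24 h, against 21.4, 17.9 and 18.7% of all genes tested. Among the mock-led lower genes the median log2 level under ABA was 2.77 at 9 h, and that in mock was 4.55. At 6 h these medians were 2.75 under ABA and 4.17 in mock, and at 24 h they were 2.63 under ABA and 3.94 in mock. The class was chosen on the levels at 9 h, so that a mock median above early mock and an ABA median near it at 9 h follow from the choice.

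Of the genes of ABA perception and signalling that were called and at least 1 apart, all were ABA-led except for 1 shared PP2C gene: 6 PP2C genes, 4 receptor genes and 3 SnRK2 and ABF/ABI genes. Of 9 clade A PP2C genes, whose products switch the pathway off, 7 were higher and 0 lower by the calls in the authors' deposited table (median log2 effect 3.21), with a median ABA side of 2.88 and a median mock side of 0.08. HAI1 had 126, 289, 292, 176, 142, 125 and 90.3 FPKM under ABA at the 7 times from 0.5 to 24 h, and 0.930, 0.915, 0.692, 1.17, 1.31, 1.25 and 1.91 in mock. Its level under ABA at 9 h lay below those from 1 to 6 h, and the pools of both treatments did not overlap at any time. ABI1 had 260.0 FPKM under ABA and 37.7 in mock (2.76) and HAB1 had 88.6 FPKM under ABA and 23.3 in mock (1.88). Of the 14 receptor genes, 9 passed the filter on low values, and 5 of them were lower and 0 higher by the calls in the authors' deposited table (median log2 effect -1.13). PYL4 had 8.65 FPKM under ABA and 192 in mock (-4.32), PYL5 had 6.14 FPKM under ABA and 103 in mock (-3.86) and PYR1 had 33.7 FPKM under ABA and 133 in mock (-1.95). Of 8 SnRK2 and ABF/ABI genes tested, 7 were higher by the calls in the authors' deposited table (median 0.77), among them the transcription factor genes ABF3 (78.7 FPKM under ABA and 19.8 in mock) and ABF2 (42.9 FPKM under ABA and 12.4 in mock).

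The genes of ABA synthesis, breakdown and transport held more higher than lower calls. Of 13 tested, 9 were higher and 2 lower by the calls in the authors' deposited table (median log2 effect 1.04). NCED3, which encodes the rate-limiting dioxygenase of ABA synthesis, had 13.8 FPKM under ABA and 0.649 in mock (3.17), and the ABA hydroxylase gene CYP707A1, which starts breakdown, had 119 FPKM under ABA and 8.45 in mock (3.66). The hydroxylase gene CYP707A3 was mock-led: its ABA side was -1.77 and its mock side -3.303, so that both levels lay below early mock and the mock level further. Of the ABA transporter genes, the exporter gene ABCG25 had 18.9 FPKM under ABA and 7.15 in mock (1.29) and the importer gene ABCG40 had 0.575 FPKM under ABA and 4.15 in mock (-1.71), both mock-led.

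Of 19 LEA, dehydrin and cold-regulated genes, 18 were higher by the calls in the authors' deposited table. Their median log2 effect was 5.13. Their summed level was 38416 FPKM under ABA and 1224 in mock. The median mock side was -0.76, and of the 18 called genes 13 were ABA-led and 5 shared. The uncalled EM1, a seed LEA gene, had 33.7 FPKM under ABA and 0.189 in mock (4.87). The ABA- and drought-related transcription factor genes had 18 of 21 higher and 2 lower by the calls in the authors' deposited table (median 1.55), led by the homeodomain genes HB7 (351 FPKM under ABA and 6.25 in mock; 5.603) and HB12 (136 FPKM under ABA and 6.61 in mock; 4.17) and the NAC gene RD26 (3.62). P5CS1, which encodes the first enzyme of proline synthesis, had 216 FPKM under ABA and 13.6 in mock (3.90). The sugar exporter gene SWEET15 had 379.8 FPKM under ABA and 3.99 in mock (6.25), and of 11 chlorophyll breakdown and senescence genes 8 were higher and 2 lower by the calls in the authors' deposited table (median 0.73).

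The bases before RD29B and LEA4-5 are shown because both genes are among the 10 largest rises and because these windows hold several copies of the ABA-responsive element core, searched as ACGTGGC or ACGTGTC on both strands and written in capitals. Each line gives the 250 bases before the annotated gene start on the coding strand, 5′ to 3′, from RefSeq's TAIR10.1 assembly, at chr5:21236771-21237020 on the plus strand for RD29B and chr5:2090431-2090680 on the minus strand for LEA4-5.
RD29B: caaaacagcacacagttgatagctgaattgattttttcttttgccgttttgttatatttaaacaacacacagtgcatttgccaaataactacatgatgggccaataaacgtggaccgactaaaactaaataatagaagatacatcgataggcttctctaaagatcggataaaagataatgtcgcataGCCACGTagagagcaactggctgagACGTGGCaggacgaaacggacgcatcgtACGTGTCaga
LEA4-5: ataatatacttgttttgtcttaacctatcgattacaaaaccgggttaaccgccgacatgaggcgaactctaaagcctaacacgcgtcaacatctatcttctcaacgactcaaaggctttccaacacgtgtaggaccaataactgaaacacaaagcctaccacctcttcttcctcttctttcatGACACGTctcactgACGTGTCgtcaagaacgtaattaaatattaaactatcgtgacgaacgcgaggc
RD29B holds 3 matches, whose first bases lie 63, 38 and 10 bases before the start, and LEA4-5 holds 2, at 67 and 53 bases before it. Of the 6 ABA-led higher genes with the largest effects, 3 had a match in this window.

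Genes lower under ABA with a moved ABA level included some touch, intracellular immune receptor and Calvin cycle genes. The 3 Rubisco and Calvin cycle genes called and at least 1 apart were all ABA-led. That list had a median ABA side of -1.86 and a median mock side of -1.23. Of 15 touch-responsive and early stress genes, 12 were lower and 1 higher by the calls in the authors' deposited table (median log2 effect -0.86). Both levels lay below early mock, with a median ABA side of -2.15 and a median mock side of -1.40. Of the touch and early stress genes called and at least 1 apart, 3 were ABA-led, 2 mock-led and 1 shared. TCH3, a calmodulin-like gene, had 504, 510.2, 13.6, 6.54, 9.66, 4.14 and 4.32 FPKM under ABA from 0.5 to 24 h, and 497, 641, 197, 198, 197, 117 and 69.7 in mock. The pools were close at 0.5 h and the ABA level was the lower one from 1 h on. Of 16 intracellular immune receptor genes, 9 were lower and 0 higher by the calls in the authors' deposited table (median -0.43), and the 3 of them called and at least 1 apart were ABA-led. These were RPP4, a receptor gene for downy mildew (2.79 FPKM under ABA and 9.83 in mock), and the helper receptor genes ADR1 (6.07 FPKM under ABA and 14.2 in mock) and ADR1-L1 (10.3 FPKM under ABA and 22.8 in mock). RBOHD, which encodes the NADPH oxidase of the immune oxidative burst, had 4.67 FPKM under ABA and 16.6 in mock (-1.63), while its homolog RBOHF, which acts in ABA signalling in guard cells, had 11.3 FPKM under ABA and 5.83 in mock (0.85) and was called higher.

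The salicylate genes held more mock-led than ABA-led members, with a median mock level above early mock. Of 21 genes for the synthesis and control of salicylate and N-hydroxypipecolate, a second immune signal, 14 were lower and 0 higher by the calls in the authors' deposited table (median log2 effect -0.73, median mock side 1.34). The median ABA side was -0.17, and 0.05 with each pool scaled to the same sum. Of the 9 called and at least 1 apart, 7 were mock-led and 2 shared. The member with the widest rise was DLO1, which encodes a salicylate hydroxylase, with 3.57 FPKM under ABA and 0.0840 in mock (2.08) and no call. ICS1, the isochorismate synthase gene that starts the pathway, had 5.21, 5.52, 4.63, 3.42, 4.12, 4.88 and 5.73 FPKM under ABA from 0.5 to 24 h, and 5.69, 6.31, 8.28, 15.6, 55.8, 43.9 and 10.3 in mock. PBS3, whose enzyme conjugates isochorismate to glutamate, had 0.0140, 0.106, 0.269, 0.121, 0.313, 0.366 and 0.629 FPKM under ABA and 0.177, 0.155, 0.399, 6.29, 27.5, 19.5 and 3.96 in mock. Under ABA, ICS1 lay between 3.42 and 5.73 FPKM and PBS3 below 1 FPKM at all 7 times, whereas both mock levels were highest at 9 h. FMO1, which makes N-hydroxypipecolate, had 0.376 FPKM under ABA and 12.4 in mock (-3.28), and EDS5, which encodes the exporter of the salicylate precursor from the plastid, had 9.47 FPKM under ABA and 23.6 in mock (-1.23). The regulators CBP60G (0.494 FPKM under ABA and 14.1 in mock) and SARD1 (0.118 FPKM under ABA and 3.06 in mock) and the lipase-like immune genes EDS1 (5.35 FPKM under ABA and 26.7 in mock) and PAD4 (4.26 FPKM under ABA and 19.7 in mock) were lower as well. ALD1, which makes the precursor of N-hydroxypipecolate, had 0.652 FPKM under ABA and 1.04 in mock and was not called, and neither was NPR1, the coactivator gene (8.99 FPKM under ABA and 10.52 in mock).

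Downstream of salicylate, 7 of 9 response genes tested were lower and 0 higher by the calls in the authors' deposited table (median log2 effect -2.77, median mock side 1.33). NIMIN2, which encodes an NPR1-binding protein, had 4.65, 5.13, 5.28, 5.07, 5.45, 5.29 and 3.66 FPKM under ABA from 0.5 to 24 h, and 3.42, 3.62, 5.12, 10.8, 43.0, 56.6 and 32.2 in mock. The ABA values stayed within a narrow band and the mock values stood above them from 6 h. NIMIN1 had 0.187 FPKM under ABA and 9.28 in mock without a call, and PNP-A had 0.671 FPKM under ABA and 17.5 in mock (-3.47). PR1, the classic marker of the response, was near 0 in both pools with 0.0463 FPKM under ABA and 0.133 in mock. Of 24 WRKY factor genes tested, 14 were lower and 2 higher by the calls in the authors' deposited table (median -0.60). WRKY70 had 4.11, 1.81, 1.26, 0.828, 1.06, 1.74 and 1.61 FPKM under ABA from 0.5 to 24 h, and 5.23, 6.38, 2.75, 4.61, 30.4, 39.2 and 11.04 in mock. Its mock level was higher at 9 and 12 h than at the other times, and its ABA level was below that of mock at all 7.

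**Figure D2:**
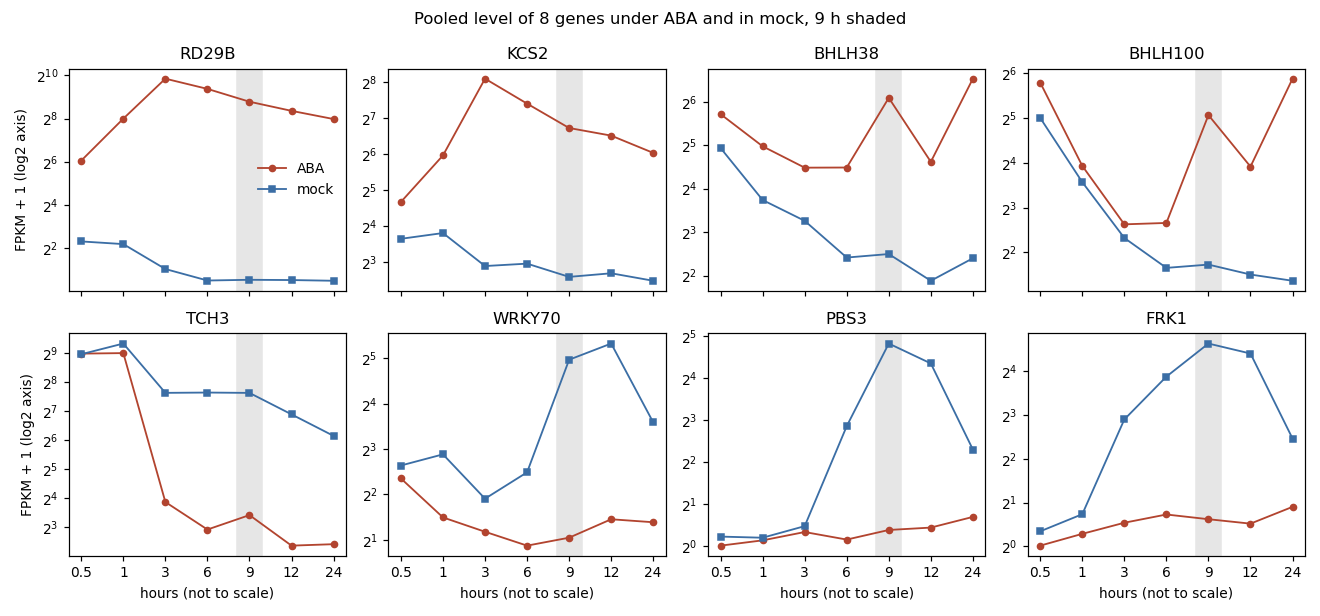
FPKM + 1 on a log2 axis against hours (not to scale) for 8 genes, with ABA pools as red circles, mock pools as blue squares and 9 h shaded; each point is 1 pooled value with no error. PBS3 and FRK1 stay low under ABA while mock peaks at 9 h, TCH3 drops under ABA by 3 h, and BHLH38 and BHLH100 stand higher under ABA at 9 h than at 6 and 12 h.

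Of 19 cell-surface immune receptor and kinase genes, 12 were lower and 2 higher by the calls in the authors' deposited table (median log2 effect -1.44, median ABA side -0.41, median mock side 0.54). FRK1, a receptor kinase gene used as a marker of flagellin responses, had 0.00937, 0.217, 0.452, 0.654, 0.535, 0.431 and 0.868 FPKM under ABA from 0.5 to 24 h, and 0.267, 0.662, 6.48, 13.7, 23.9, 20.3 and 4.52 in mock. WAK1, a wall-associated kinase gene, had 1.59 FPKM under ABA and 37.9 in mock (-3.91), and the receptor genes FLS2 for flagellin and EFR for elongation factor Tu had 3.27 FPKM under ABA and 11.01 in mock and 0.764 FPKM under ABA and 4.29 in mock. BAK1, their co-receptor gene, had 23.9 FPKM under ABA and 31.3 in mock and was called lower at a log2 effect of -0.38, while CERK1, the chitin receptor kinase gene, had 12.2 FPKM under ABA and 13.4 in mock and was not called.

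The windows before FRK1 and NIMIN2 are shown because both genes are mock-led lower and hold 2 matches each to the W-box, the element that WRKY factors bind, searched as TTGACC or TTGACT on both strands and in capitals here. They are the 250 bases before the gene starts on the coding strand, from TAIR10.1, at chr2:8329945-8330194 for FRK1 and chr3:9471040-9471289 for NIMIN2, both on the minus strand.
FRK1: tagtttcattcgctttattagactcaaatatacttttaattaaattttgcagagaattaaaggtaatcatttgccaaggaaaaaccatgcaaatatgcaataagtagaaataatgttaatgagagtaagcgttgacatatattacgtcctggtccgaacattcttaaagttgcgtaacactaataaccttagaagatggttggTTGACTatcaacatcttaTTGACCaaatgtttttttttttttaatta
NIMIN2: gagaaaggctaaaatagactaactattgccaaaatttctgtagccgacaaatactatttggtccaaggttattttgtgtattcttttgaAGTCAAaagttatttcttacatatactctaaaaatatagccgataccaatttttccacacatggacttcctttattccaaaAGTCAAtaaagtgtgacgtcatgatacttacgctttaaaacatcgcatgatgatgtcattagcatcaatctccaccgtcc
The matches begin 47 and 29 bases before the start in FRK1 and 161 and 80 bases before it in NIMIN2. These windows are not typical of the lists: of 27 mock-led lower list members with a promoter, 5 had a W-box match and 1 an ABA-responsive element core.

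Motif shares over the classes are descriptions, since the classes were chosen on these values. An ABA-responsive element core was present in 18.8% of 691 promoters of ABA-led higher genes (95% Wilson interval 16.1 to 21.9%), in 12.9% of 116 of mock-led higher genes (7.995 to 20.24%), and in 3.98% of ABA-led lower and 3.49% of mock-led lower ones. It was present in 7.69% of 19495 promoters of genes tested and in 6.39% of all 27443 protein-coding promoters. A W-box was present in 41.5% of 258 promoters of mock-led lower genes (35.6 to 47.6%), in 43.3% of shared lower, 34.3% of ABA-led lower and 25.8% of ABA-led higher ones, against 28.2% of those tested and 28.4% of all protein-coding promoters. The G-box, CACGTG, whose letters overlap those of the ABA-responsive element core, was present in 18.1% of promoters of ABA-led higher genes and 7.77% of those tested. The intervals cover counting error only.

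**Figure D3:**
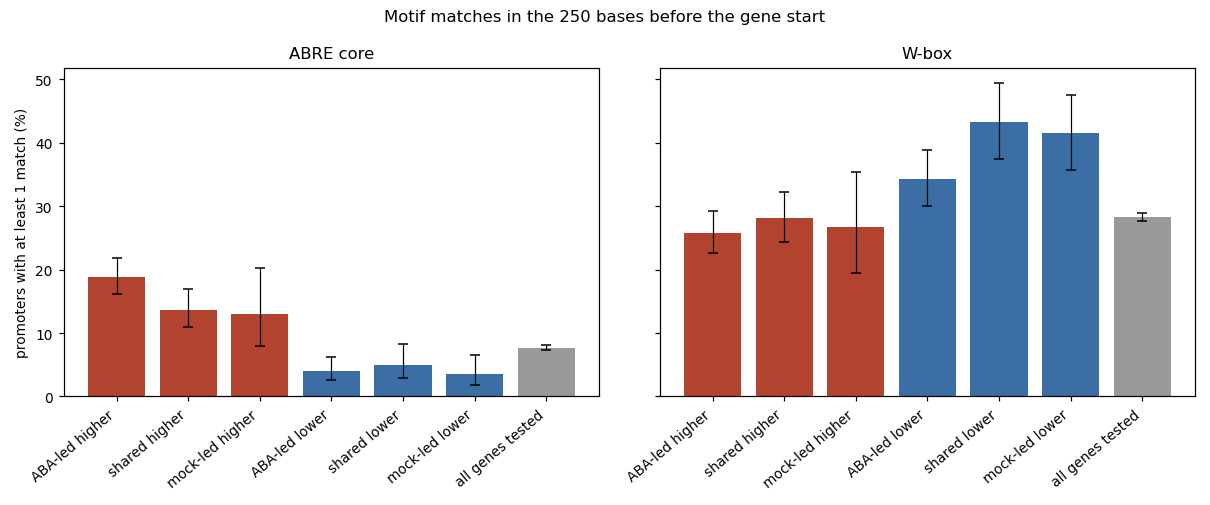
Percent of promoters (250 bases before the gene start) with at least 1 match to the ABA-responsive element core (left) and the W-box (right), by class and for all genes tested; bars are shares and whiskers 95% Wilson intervals. The ABA-responsive element core is most frequent in ABA-led higher genes (18.8%) and the W-box in shared lower (43.3%) and mock-led lower genes (41.5%).

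With the mock pools at 3 and 6 h as the base, 27 of the 259 mock-led lower genes kept that term, so that their mock level at 9 h was also above that of 3 and 6 h. Among them were FMO1, NIMIN2, EDS5, UGT76B1, which encodes a glycosyltransferase of salicylate and N-hydroxypipecolate, PNP-A, LURP1 and WRKY50 of the salicylate and WRKY lists. NUDT6, which encodes a nudix hydrolase, had 0.956 FPKM under ABA and 23.0 in mock at 9 h, and 0.761 under ABA and 2.31 in mock at 6 h. CYP71A12, of camalexin synthesis, had 0.265 FPKM under ABA and 11.2 in mock at 9 h, and 0.230 under ABA and 2.15 in mock at 6 h. The defensin gene PDF1.2A was listed at 0 under ABA and at 3.29 FPKM in mock.

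Other defence lists also held more lower than higher calls, where 17.7% of all genes tested were called higher and 18.4% lower. Of 26 jasmonate genes tested, 13 were lower and 5 higher by the calls in the authors' deposited table (median log2 effect -0.44). ORA59, a factor of the defensin branch, had 0.206 FPKM under ABA and 17.3 in mock (-3.92), whereas VSP2, a marker of the MYC branch, had 22.2 FPKM under ABA and 2.12 in mock (2.89) and is uncertain because VSP1 is a near copy. Of 10 ethylene genes tested, 6 were lower and 1 higher by the calls in the authors' deposited table. Aliphatic glucosinolate genes had 9 of 12 tested lower and 0 higher by the calls in the authors' deposited table (median -0.83), led after MAM3 by BCAT4, the aminotransferase gene of chain elongation (9.46 FPKM under ABA and 104 in mock). Indole glucosinolate and camalexin genes had 9 of 13 lower and 2 higher by the calls in the authors' deposited table (median -0.78), with CYP81F2 at 0.903 FPKM under ABA and 12.9 in mock and PAD3, the last step of camalexin synthesis, at 0.827 FPKM under ABA and 9.94 in mock. The MYB34 gene, a regulator of indole glucosinolates, went the other way with 69.0 FPKM under ABA and 27.3 in mock (1.31).

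Suberin and wax genes were higher under ABA with both levels moved. These genes build the waterproof layers of the root and the leaf surface. Of 20 tested, 19 were higher and 1 lower by the calls in the authors' deposited table (median log2 effect 1.33), with a median ABA side of 0.86 and a median mock side of -0.66. Of the 15 called and at least 1 apart, 8 were shared, 4 ABA-led and 3 mock-led. KCS2, a fatty acid elongase gene, had 24.4, 61.4, 274, 169, 105, 90.5 and 64.5 FPKM under ABA from 0.5 to 24 h, and 11.5, 12.9, 6.36, 6.71, 4.97, 5.40 and 4.53 in mock. Its ABA value at 9 h lay below those at 3 and 6 h. ABCG6, a suberin transporter gene, had 42.6 FPKM under ABA and 2.399 in mock (3.68), GPAT5, an acyltransferase gene of suberin, had 30.9 FPKM under ABA and 2.66 in mock (3.12), and ASFT, which adds ferulate, had 123 FPKM under ABA and 18.4 in mock (2.68). On the wax side CER1, an alkane synthesis gene, had 97.1 FPKM under ABA and 7.26 in mock (3.57) and was ABA-led. LACS1, an acyl-CoA synthetase gene, was the member called lower, with 28.04 FPKM under ABA and 46.5 in mock (-0.71).

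Aquaporin genes were higher under ABA, with the mock level below early mock and the ABA level close to it. Of 19 genes, 14 were higher and 1 lower by the calls in the authors' deposited table (median log2 effect 0.63), with a median ABA side of -0.21 (0.06 with each pool scaled to the same sum) and a median mock side of -0.83 (-0.58). The summed level was 6885 FPKM under ABA and 4294 in mock. TIP2;3, which encodes a channel of the vacuolar membrane, had 59.1 FPKM under ABA and 10.49 in mock (2.39), and the plasma membrane channel genes PIP1;1 and PIP2;1 had 553 FPKM under ABA and 229 in mock and 894 FPKM under ABA and 427 in mock. PIP2;3, which is a close copy of PIP2;2 and uncertain, was called lower with 40.3 FPKM under ABA and 54.4 in mock.

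Starch breakdown genes were higher, 10 of 13 tested higher and 1 lower by the calls in the authors' deposited table (median log2 effect 0.67). The beta-amylase gene BAM1 had 169 FPKM under ABA and 40.7 in mock (2.03), the maltose exporter gene MEX1 28.7 FPKM under ABA and 6.52 in mock (1.98), the debranching enzyme gene ISA3 44.5 FPKM under ABA and 13.5 in mock (1.65) and the glucan dikinase gene GWD1 73.4 FPKM under ABA and 30.1 in mock (1.26). BAM3, the other main plastid beta-amylase gene, was called lower with 136 FPKM under ABA and 179.6 in mock (-0.40). Of 15 autophagy genes, 9 were higher and 0 lower by the calls in the authors' deposited table (median 0.52). None of the 9 had an effect of 1 or more, and the uncalled ATG8A, whose product coats the autophagosome membrane, had 111 FPKM under ABA and 38.04 in mock (1.52).

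Iron uptake genes lay on both sides. Roots of this species reduce ferric iron with FRO2 and take it in through IRT1 under the factor FRU (also known as FIT), and the factors BHLH38, BHLH39, BHLH100 and BHLH101 respond to low iron. Of 21 genes tested, 11 were higher and 7 lower by the calls in the authors' deposited table (median log2 effect 0.72). IRT1 had 67.2, 57.0, 4.33, 1.97, 1.19, 0.134 and 8.89 FPKM under ABA from 0.5 to 24 h, and 105, 112, 85.1, 38.3, 35.0, 26.9 and 9.34 in mock. FRO2 had 0.981 FPKM under ABA and 7.33 in mock (-2.07) and FRU had 1.498 FPKM under ABA and 7.26 in mock (-1.73). CYP82C4, a cytochrome P450 gene that is induced by low iron, had 0.0466 FPKM under ABA and 7.42 in mock without a call. All 4 bHLH factor genes were higher by the calls in the authors' deposited table. BHLH38 had 51.5, 30.5, 21.4, 21.4, 67.1, 23.6 and 91.5 FPKM under ABA from 0.5 to 24 h, and 29.6, 12.4, 8.59, 4.34, 4.64, 2.68 and 4.28 in mock. BHLH100 had 54.5, 14.3, 5.19, 5.32, 32.6, 14.1 and 58.0 FPKM under ABA and 31.1, 10.9, 4.01, 2.15, 2.32, 1.84 and 1.58 in mock. Under ABA both were higher at 9 h than at 6 or 12 h, and both were higher still at 24 h, while in mock both were highest at 0.5 h. The genes AT1G47395, AT1G47400 and AT2G30766 of the list had log2 effects of 1.91, 1.85 and 1.43 and were ABA-led. PYE and BTS, a factor and a ubiquitin ligase of the low-iron response, had 29.1 FPKM under ABA and 13.2 in mock and 43.9 FPKM under ABA and 26.3 in mock.

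**Figure D4:**
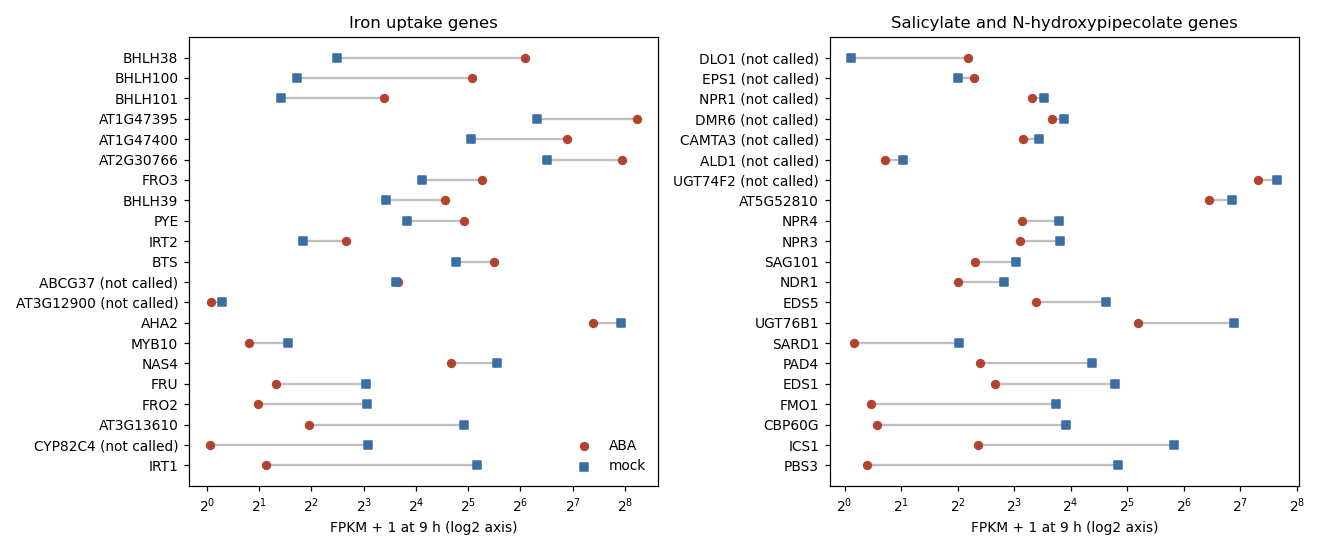
FPKM + 1 on a log2 axis at 9 h in the ABA pool (red circles) and the mock pool (blue squares) for 21 iron uptake genes (left) and 21 salicylate and N-hydroxypipecolate genes (right), ordered by log2 effect; each point is 1 pooled value with no error. The bHLH factor genes sit at the top of the iron panel with ABA to the right of mock and IRT1 at the bottom with mock to the right; on the salicylate side no called gene has ABA to the right.

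The light-reaction genes differed little between the pools at 9 h although both pools had moved. Of 32 genes, 4 were higher and 5 lower by the calls in the authors' deposited table (median log2 effect -0.03), and both the median ABA side and the median mock side were -1.30. The summed level was 65268 FPKM under ABA and 66808 in mock. The neighbouring times differed from 9 h in these counts: 2 were called higher and 12 lower at 6 h, and 25 higher and 0 lower at 12 h, in the authors' deposited table. Rubisco and Calvin cycle genes had 13 of 16 lower and 0 higher at 9 h by the calls in the authors' deposited table (median -0.59), 13 lower and 0 higher at 6 h, and 7 higher and 3 lower at 12 h. RBCS1B, a small subunit gene whose copies share reads, had 855 FPKM under ABA and 2648 in mock (-1.63), and the aldolase gene FBA1 had 383 FPKM under ABA and 742 in mock (-0.95). Of the clock genes, 1 of 14 morning and 2 of 14 evening genes were called and at least 1 apart. That is near the background, where 6.76% of all genes tested were so higher and 4.87% lower. CCA1, the morning oscillator gene, had 28.1 FPKM under ABA and 30.98 in mock, and TOC1, its evening partner, had 22.5 FPKM under ABA and 19.04 in mock, neither called. Of 14 morning genes, 5 were higher and 2 lower by the calls in the authors' deposited table, and of 14 evening genes 4 higher and 1 lower, where 17.7% of all genes tested were higher and 18.4% lower. The RNA-binding protein gene GRP8 was called lower with 314 FPKM under ABA and 759 in mock (-1.27).

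The cell cycle, cell wall loosening and type-A response regulator lists held more lower than higher calls, and the auxin response list did not. Of 25 cell cycle and replication genes, 8 were lower and 0 higher by the calls in the authors' deposited table (median log2 effect -0.29), none by 1 or more. Cell wall loosening genes had 9 of 18 lower and 6 higher by the calls in the authors' deposited table. The xyloglucan-modifying gene XTH31 had 66.4 FPKM under ABA and 498 in mock (-2.89) and the expansin gene EXPA1 had 33.1 FPKM under ABA and 228 in mock (-2.74), while the root hair expansin genes EXPA7 (26.9 FPKM under ABA and 10.53 in mock) and EXPA18 (25.5 FPKM under ABA and 10.03 in mock) were called higher. Type-A response regulators, which restrain the cytokinin signal, had 5 of 9 tested lower and 0 higher by the calls in the authors' deposited table (median -0.60), with ARR7 at 12.9 FPKM under ABA and 42.7 in mock and ARR15 at 0.991 FPKM under ABA and 5.11 in mock. Auxin response genes had 2 of 14 higher and 1 lower by the calls in the authors' deposited table. These counts are near the background, where 17.7% of all genes tested were higher and 18.4% lower. Of 7 guard cell markers, 2 were lower and 0 higher by the calls in the authors' deposited table, AT1G22690 with 25.6 FPKM under ABA and 221 in mock and the factor gene MYB60 with 6.03 FPKM under ABA and 14.5 in mock. The root markers had 2 of 12 higher and 1 lower by the calls in the authors' deposited table. Their summed level was 123 FPKM under ABA and 116 in mock. The other 5 guard cell markers were not called, and the median log2 effect of the 7 was -0.34. Both marker counts are near the background of 17.7% higher and 18.4% lower among all genes tested. A part of cell composition in the results was not tested.

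Among the stress lists, 7 of 14 heat shock genes were higher and 2 lower by the calls in the authors' deposited table (median log2 effect 1.42). HSP17.4 had 25.03 FPKM under ABA and 1.81 in mock (3.21) and the factor gene HSFA6B had 18.8 FPKM under ABA and 0.687 in mock (3.55), while HSP90.1 had 14.3 FPKM under ABA and 61.4 in mock (-2.03). Genes of seed storage proteins and oil bodies had 5 of 10 tested higher and 0 lower by the calls in the authors' deposited table, with the oleosin gene OLEO2 at 100.4 FPKM under ABA and 0.675 in mock (5.92). Flavonoid genes had 8 of 14 higher and 5 lower by the calls in the authors' deposited table. On the anthocyanin side the factor gene PAP1 had 30.9 FPKM under ABA and 3.19 in mock (2.93) and DFR, a reductase gene, had 77.2 FPKM under ABA and 23.3 in mock (1.69), while the flavonol factor gene MYB111 had 2.25 FPKM under ABA and 7.96 in mock (-1.46). Hypoxia genes had 2 of 10 higher and 5 lower by the calls in the authors' deposited table, with the alcohol dehydrogenase gene ADH1 at 237 FPKM under ABA and 49.9 in mock and the factor gene HRE1 at 2.71 FPKM under ABA and 12.7 in mock. Nitrate genes had 5 of 13 tested lower and 1 higher by the calls in the authors' deposited table, and dark- and sugar-starvation genes had 5 of 13 called higher and 2 lower. Of 10 osmolyte genes, 5 were higher and 2 lower by the calls in the authors' deposited table. Beside the counts of these stress lists, 17.7% of all genes tested were called higher and 18.4% lower. The lists are small and were not tested against these shares.

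Of the microRNA targets, 10 of 42 tested were higher and 6 lower by the calls in the authors' deposited table (median log2 effect 0.08). These counts are near the background, where 17.7% of all genes tested were higher and 18.4% lower. NFYA5, a target of miR169 and a factor gene in drought, had 7.14 FPKM under ABA and 0.476 in mock (2.46). CSD1 and CSD2, which encode superoxide dismutases that need copper, and their chaperone gene CCS, targets of miR398, were called lower with 63.6 FPKM under ABA and 180.1 in mock, 27.3 FPKM under ABA and 93.995 in mock and 9.49 FPKM under ABA and 23.4 in mock. APS1, a target of miR395 in sulphate assimilation, had 158 FPKM under ABA and 449.6 in mock (-1.505). LAC17, a laccase gene and target of miR397, had 19.1 FPKM under ABA and 6.69 in mock (1.38). The microRNAs themselves were not analysed here.

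**Figure D5:**
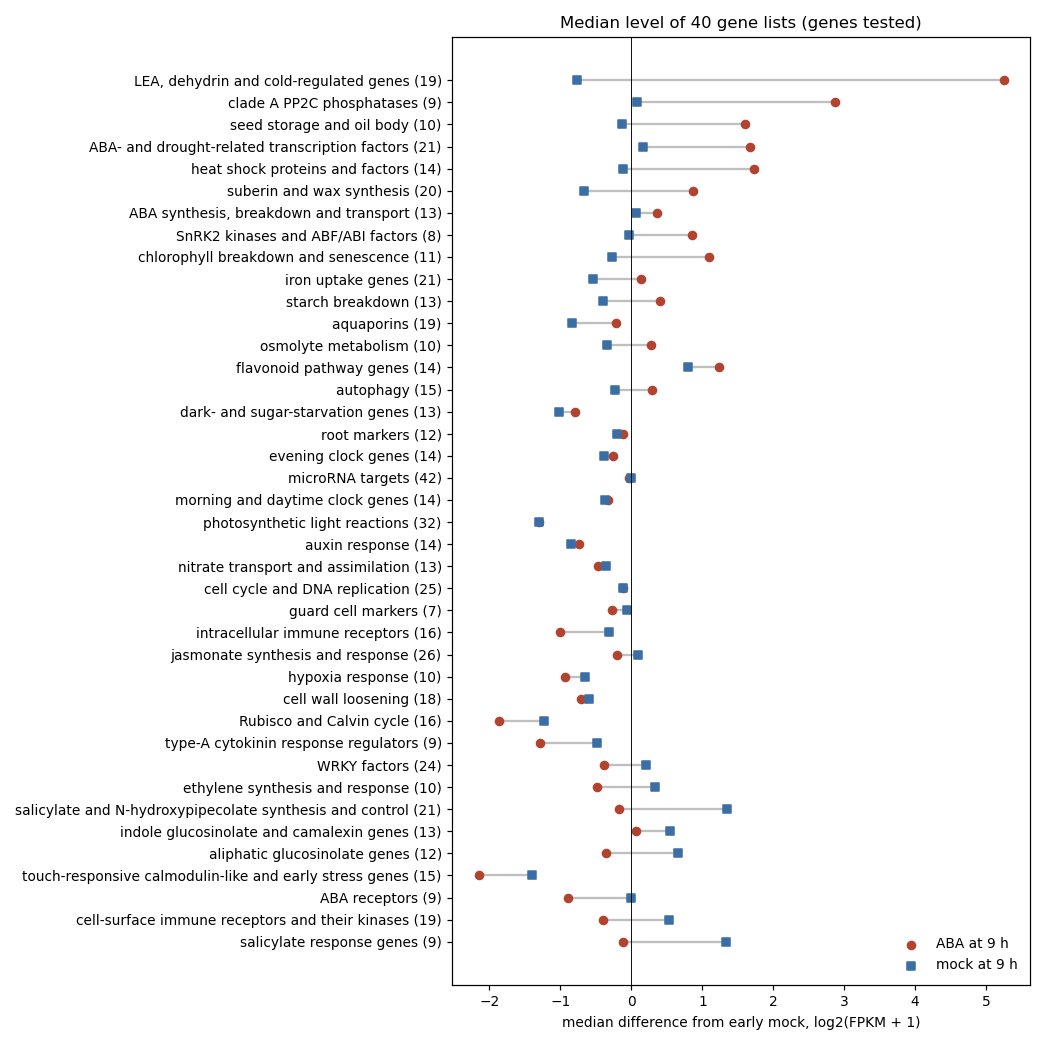
Median over the tested members of 40 gene lists (number in brackets) of the ABA pool at 9 h (red circles) and the mock pool at 9 h (blue squares), each minus early mock, as log2(FPKM + 1); the grey line between them is drawn from one median to the other. LEA genes have the widest gap with ABA to the right, salicylate genes have mock to the right near 1.3, and the light-reaction symbols coincide at -1.30.

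Effects at 9 h resembled those at 6 h most. Across 20034 genes, Spearman's rho of the 9 h effect was 0.882 with that at 6 h, 0.820 at 3 h, 0.801 at 12 h, 0.726 at 24 h, 0.527 at 1 h and 0.471 at 0.5 h, each from pools of its own. From 6 to 9 h the effect was higher by at least 1 in 63 genes and lower by at least 1 in 148. Of the 63, the ABA level gave at least 0.75 of the move in 27 and the mock level in 6, and 30 were shared between. Of the 148, the ABA level gave at least 0.75 of it in 34 and the mock level in 57, and 57 were shared. Over the 148 the median ABA move was -0.52 and the median mock move 0.70. GASA6, a gibberellin-regulated gene, had 49.7 FPKM under ABA and 150.6 in mock at 9 h, and 11.8 under ABA and 212 in mock at 6 h. LCR67, a defensin-like gene, had 26.8 FPKM under ABA and 10.8 in mock at 9 h, and 3.35 under ABA and 7.78 in mock at 6 h. WAK1 had 1.59 FPKM under ABA and 37.9 in mock at 9 h, and 1.65 under ABA and 6.86 in mock at 6 h.

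Whether 9 h stood apart from the other 6 times was tested with limma on the 7 effects, with the spread over the other times as error. By limma with Benjamini-Hochberg adjustment 0 genes had a higher effect (0.0% of 20034) and 1 a lower one (0.00499%) at an adjusted p under 0.05, and 63 and 52 did at an unadjusted p under 0.05. The gene was AT3G63052, uncharacterized, listed at 0 FPKM under ABA and at 4.11 in mock at 9 h and at 0 in both at 6 and 12 h. Its effect was -2.35 at 9 h and averaged 0.05 at the other times, a difference of -2.404 with a standard error of 0.219 (limma, adjusted p = 0.0314). Its log2 level at 9 h minus the mean of the other times was 1.84 in mock and -0.56 under ABA. The gene was therefore above 0 in both treatments at some other time. The mock level alone gave 1 gene higher (0.00499%) and 0 lower (0.0%), with 50 and 29 at an unadjusted p under 0.05 by limma. The ABA level gave 4 genes higher (0.02%) and 0 lower, with 44 and 23 by limma. These were AT3G16712 in both tests and AT5G57080, AT4G26055 and AT1G62886 in ABA. Under ABA all 4 were at 0 at each of the other 6 times, so their spread there was 0. Each call thus rests on 1 pooled value and on the error that limma borrows from other genes. AT3G16712 was also at 0 in mock at the other 6 times and passed the filter only through its 9 h pools. Its calls therefore add nothing to the way it was selected. In mock at 6 h, AT5G57080, AT4G26055 and AT1G62886 had 6.64, 15.2 and 1.69 FPKM and AT3G16712 had 0. In simulated data each time was drawn independently from a gene's own mean and spread over the other times. There the test of the effect recovered 2% of genes shifted by 1 and 54% of those shifted by 2 on the log2 scale. It recovered 94% of those shifted by 4. The real times form an ordered course, so recovery in these data may differ. The effect at 9 h minus the mean of the other times was 1.56 for BHLH38 (standard error 1.09) and -3.0002 for PBS3 (1.36), and neither was called by limma.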

How the data were processed

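Per the labels, Col-0 seedlings were sampled under ABA or an ethanol mock at 7 times, with 2 libraries for each of the 14 groups. FastQC, STAR and the TAIR10 build are named, without versions, in the submitters' processing notes. The quantifier, the test behind the yes/no calls and the way libraries were pooled are not stated in the labels or headers. The deposited table holds 1 value per gene and group for 33557 entries, taken as FPKM made by the authors from how the values are distributed, since the file headers name no unit. The other deposited columns are the authors' log2 ratio (within 4.22e-05 of the log2 of both FPKM values at 9 h over 22248 genes) and their call. RefSeq's TAIR10.1 annotation matched 32813 entries and named 637 of 659 list entries. Strand was not given, so reads of overlapping and antisense genes cannot be told apart.

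Kept were 20034 genes that reached 1 FPKM in 2 or more pools, including 630 list entries, with a pseudocount of 1; 71 called genes did not pass. A planned limma test of libraries at 9 h could not be run on pooled values. Limma 3.58.1 (R 4.3.3, eBayes with trend) compared 9 h with the other 6 times, treating times as independent, with 5 residual degrees of freedom, Benjamini-Hochberg adjustment and a check on simulated data. Named genes were the 10 largest rises and falls among called genes with a mean of at least 5 FPKM, the 6 largest of each ABA-led and mock-led class, genes passing the test against other times, up to 4 called members per list with the largest effects, and members with a described role. Other members were chosen after their values were seen. The 40 lists, their members and these rules were chosen with earlier results of these data known. Values were read with Python 3.11.15, pandas 2.3.3, numpy 2.4.6 and scipy 1.17.1.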

Additional observations from a re-analysis of the deposited data

Results flagged for a closer look

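AT3G63052, an uncharacterized gene, was the gene whose effect at 9 h differed from the mean of the other 6 times by limma (difference -2.404, standard error 0.219, adjusted p = 0.0314). It was listed at 0 FPKM under ABA and at 4.11 in mock at 9 h, and at 0 in both at 6 and 12 h, so the call rests on 1 pooled value. Its log2 level at 9 h minus the mean of the other times was 1.84 in mock and -0.56 under ABA. The gene was therefore above 0 in both treatments at some other time.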

How the results depend on the processing

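No paired analysis was possible because the table holds pools of the 2 libraries of a group; leaving out a replicate and the replicate block were not run for the same reason. Of the counts given, 51 recomputed values stayed within 1.5 times and 25 did not; of list medians 189 stayed and 11 did not, and no direction turned. These 11 medians, on the log2 scale, were WRKY -0.90 and seed storage 3.26 with a pseudocount of 0.1 (-0.60 and 1.64 with 1); salicylate response -1.23, cell-surface receptors -0.69, intracellular receptors -0.25, jasmonate -0.24, iron uptake 0.45, hypoxia -0.28, seed storage 0.71 and guard cell markers -0.16 with a pseudocount of 5 (-2.77, -1.44, -0.43, -0.44, 0.72, -0.44, 1.64 and -0.34 with 1); and iron uptake 0.38 with no filter. With a pseudocount of 0.1, mock-led higher genes numbered 181. With a pseudocount of 5, genes called and at least 1 apart numbered 836 higher and 504 lower, ABA-led lower 229, mock-led 65 higher and 136 lower, and shared 282 higher and 139 lower. With each pool scaled to the same sum, mock-led higher genes numbered 71. With the mock pools at 3 and 6 h as the base, ABA-led genes numbered 1217 higher and 705 lower, mock-led 2 higher and 32 lower, and shared higher 136. With the other 6 mock pools as the base, ABA-led higher numbered 1131, mock-led 7 higher and 30 lower, and shared higher 217. With a border share of 0.6, mock-led higher numbered 196 and shared 226 higher and 108 lower. By limma, the mock level test called 0 genes higher with log2 hours as a further term, the effect test called 0 genes lower with only 3, 6, 9, 12 and 24 h, and with no filter it called 4 higher and 5 lower. The cause of these moves was not tested, apart from the smaller differences that a larger pseudocount gives. Depth could not be recovered from the steps between low values.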

Other observations

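Among the 259 mock-led lower genes, 14 (5.41%) had an annotated product that names ribosomes, ribosomal RNA or the nucleolus, whereas 434 of all 20034 genes tested (2.17%) did. The other classes held between 0 and 3 such genes each, with 3 of 708 among the ABA-led higher genes and 0 of 454 among the ABA-led lower ones. In the same mock-led lower class the telo-box core, AAACCCT on either strand, was present in 11.2% of 258 promoters (95% Wilson interval 7.94 to 15.7%), against 6.08% of those of all genes tested. The I-box core, GATAAG on either strand, was present in 22.4% of 116 promoters of mock-led higher genes (15.8 to 30.8%), against 12.4% of those tested. These words and shares were picked after the values were seen and carry no test.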
